A study of Citrus sinensis with 72 samples.

Results

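In the fruit of the navel orange ‘Fengjie 72-1’ (C. sinensis), 175 of the 30940 genes in the deposited expression table passed through a transient maximum in mid development in the average of the 4 fruit tissues. The samples were the epicarp (EP, the coloured outer peel with its oil glands), the albedo (AL, the white spongy inner peel), the segment membrane (SM, the wall around each segment) and the juice sacs (JS, the pulp), taken at 6 stages. The labels put stage 1 at 50 days after flowering (DAF), stage 2 at 80, stage 3 at 120, stage 4 at 150, stage 5 at 180 and stage 6 at 220. Each of the 24 tissue and stage groups, written here as EP1 to JS6, had 3 replicate libraries, which gave 72 libraries, and each replicate pooled fruits of 3 trees of the same cultivar grown in 1 orchard. No treatment, mutant or second cultivar was part of the design. Since each stage was 1 harvest, a difference between stages cannot be told apart from a difference between harvest days.

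The citrus fruit is a berry of a special kind. After flowering its tissues first grow mainly by cell division and the peel makes up much of the young fruit. The juice sacs then fill and the fruit enlarges, and in the last phase the peel loses chlorophyll and gains carotenoids while sugars accumulate and acids decline in the pulp. The table names genes by their genome IDs only, and none of the IDs matched an annotated gene of the reference table, so no gene name or function can be attached to any of the IDs below. For the same reason the labelled tissues could not be checked against marker genes.

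Expression was given as FPKM, the number of sequenced fragments of a gene scaled to the length of its transcript and to the depth of the library. The members were chosen by their measured values, on the scale log2(FPKM + 1), where a step of 1 is close to a doubling for genes well above 1 FPKM. A member had its highest group mean between 10 and 3000 FPKM, tissue means that spanned less than 1, and means at the first and the last stage that were less than 1 apart. Its peak height, the highest of the stage means at stages 2 to 5 minus the higher of the means at stages 1 and 6, was at least 1. Of the 13280 genes with a highest group mean in that range, 6112 met every condition other than the peak height and 175 met all of them, which is 1.32% of the genes of that level and 0.566% of the table. Everything said below about the height and the stage of the maximum describes values that the choice itself used, and was not tested.

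Just inside the limit stood Cs3g03100 with a peak height of 1.0023 and Cs7g13390 with 1.0046, and just outside stood Cs5g22670 with 0.9962 and Cs7g27500 with 0.9949. Genes on either side of the limit rose in SM from stage 1 to stage 2, though not all of them did. At stage 2, Cs7g13390, inside the limit, had 66.7, 60.9 and 72.8 FPKM in SM, against 18.3, 14.6 and 19.6 FPKM in SM at stage 1. Cs5g22670, outside it, had 50.6, 49.8 and 58.5 FPKM in SM at stage 2, against 21.6, 16.0 and 17.4 FPKM at stage 1. Cs7g27500, also outside, had 41.6, 40.4 and 48.4 FPKM against 17.5, 16.8 and 19.4 FPKM. Cs3g03100, inside, had 77.9, 102.5 and 87.6 FPKM, which overlapped its 89.7, 68.8 and 56.9 FPKM at stage 1.

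The libraries held 15365221 to 25424354 fragments, with a median of 19458683. In all but 3 of the 72 libraries the most similar library over all genes was another of the same group. The exceptions were EP2 replicate 1, closest to EP3 replicate 3 (r = 0.974 across genes, which are not independent replicates), AL2 replicate 1, closest to AL4 replicate 1 (r = 0.979), and AL3 replicate 1, closest to AL2 replicate 2 (r = 0.966). These 3 libraries bear directly on the members. AL2 replicate 1 was the lowest of its group for 119 of the 175 members (68.0%, against 32.9% of the genes of the level), EP2 replicate 1 was the lowest for 127 (72.6%, against 33.1%), and AL3 replicate 1 was the highest of its group for 80 (45.7%, against 30.9%). Without the 3 libraries the rule chose 222 genes, 167 of them among the 175.

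The maximum came early in the middle of development. Stage 2 (80 DAF) was the highest stage for 102 members (58.3%), stage 3 (120 DAF) for 59 (33.7%), stage 4 (150 DAF) for 13 (7.4%) and stage 5 (180 DAF) for 1 (0.6%). The 6112 genes that met the rest of the rule were spread more evenly over the middle stages, with 22.4% highest at stage 2, 18.8% at stage 3, 28.9% at stage 4 and 29.9% at stage 5. Relative to stage 1, the median member stood at 1.21 at stage 2, 1.11 at stage 3, 0.49 at stage 4, 0.01 at stage 5 and -0.10 at stage 6 on the log2 scale. By 180 DAF the median member was thus back at its starting level. The median over the genes of the level stayed between -0.09 and 0.03 of its stage 1 value at all later stages.

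**Figure D1:**
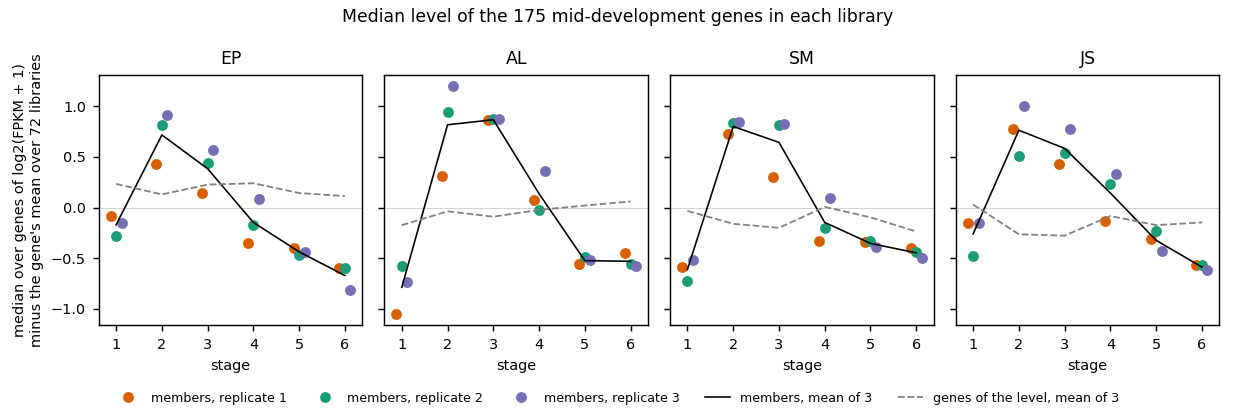
Median over the 175 members of log2(FPKM + 1) in each library, after each gene was centred on its own mean, plotted against the stage for EP, AL, SM and JS, with 1 point per library coloured by replicate, a solid line through the stage means of the members and a dashed line through those of the genes of the level. The points are highest at stages 2 and 3 in all 4 tissues, and AL2 replicate 1, at 0.31, lies well below the other AL2 libraries at 0.94 and 1.20.

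Genes with different peak stages also differed in how they left the peak. Those highest at stage 2 stood at a median of 1.42 above stage 1 at that stage, 0.98 at stage 3 and 0.23 at stage 4, and were below their starting level at stage 5 (-0.22) and stage 6 (-0.26). Those highest at stage 3 were already up at stage 2 (1.06), reached 1.29 at stage 3 and were still at 0.66 at stage 4. Those highest at stage 4 showed little at stages 2 and 3 (0.20 and 0.32), reached 1.4 and stood at 0.62 one stage later. The early and middle maxima were thus broad rises over both stages 2 and 3, while the later one lay at stages 4 and 5 in these medians. Fruit of the last stage was below fruit of the first for 107 of the 175 members.

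Most peaks were modest. The median peak height was 1.27, with quartiles of 1.12 and 1.52, and only 15 members reached 2 and 4 members reached 3. The median was 1.37 for genes highest at stage 2, 1.16 at stage 3 and 1.21 at stage 4. The members covered a wide range of levels, since the highest group mean ran from 10.1 to 2491.2 FPKM with a median of 92.3 FPKM. That highest group was an AL group for 56 members, an SM group for 48, an EP group for 41 and a JS group for 30. EP2 alone was the highest group of 33 members.

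Cs1g06880 had both the highest peak, at 4.48, and the highest group mean of the set, at 2491.2 FPKM in EP2. At stage 2 it had 988, 3004 and 3482 FPKM in EP, 35.3, 1789 and 2594 FPKM in AL, 1080, 2050 and 1888 FPKM in SM, and 2098, 738 and 3158 FPKM in JS. In the 24 libraries of stages 1 and 6 it lay between 16.7 and 283 FPKM. All stage 2 libraries other than AL2 replicate 1 were therefore above every library of the end stages. At stage 3 its replicates were far apart, with 31.4, 1239 and 1686 FPKM in SM and 59.8, 615 and 1759 FPKM in JS. At stage 4 replicate 3 was the highest in all 4 tissues, with 325 FPKM in EP, 245 in AL, 74.0 in SM and 724 in JS.

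The next highest peak at stage 2 was that of Novel00086, at 3.83. It had 6.96, 104 and 106 FPKM in EP2, 0.651, 221 and 148 FPKM in AL2, 9.77, 18.6 and 31.0 FPKM in SM2, and 34.5, 21.3 and 35.9 FPKM in JS2. AL2 replicate 1 was again at the level of the end stages, and at stage 3 AL replicate 1, with 79.6 FPKM, was the highest of 79.6, 74.5 and 39.2 FPKM. In SM, replicate 1 of stage 1 had 49.6 FPKM beside 0.184 and 0.457 FPKM in the others, so that within SM this gene's own peak height was only 0.23, against 4.45 in EP, 5.22 in AL and 2.63 in JS.

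Among the genes highest at stage 3, Cs1g12520 had the highest peak (2.52) and Cs5g26740 the next (1.87). Cs1g12520 had 25.2, 22.5 and 25.5 FPKM in EP3, 51.9, 48.1 and 27.6 FPKM in AL3, 25.2, 44.6 and 43.0 FPKM in SM3, and 31.2, 28.8 and 41.4 FPKM in JS3. Its 24 libraries of stages 1 and 6 lay between 1.29 and 8.48 FPKM, below all 12 of stage 3. Cs5g26740 was a more strongly expressed gene, with 345, 400 and 401 FPKM in EP3, 259, 504 and 448 FPKM in AL3, 537, 797 and 874 FPKM in SM3, and 640, 749 and 744 FPKM in JS3. At stage 6 it had fallen to between 85.4 and 138 FPKM in all tissues.

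Cs5g16440, also highest at stage 3, had the second highest group mean of the set, at 2390.5 FPKM in SM3 (peak height 1.48). It had 1906, 2402 and 2864 FPKM in SM3 and 2113, 2384 and 2576 FPKM in JS3. In EP it moved little, with 399 to 590 FPKM at stage 1, 684 to 916 FPKM at stage 3 and 568 to 708 FPKM at stage 6. Its own peak height was 2.00 in SM, 1.41 in JS and 1.21 in AL, and 0.27 in EP.

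The later maximum was carried by few genes. orange1.1t00272 had the highest peak at stage 4 (2.25), with 15.8, 17.9 and 16.6 FPKM in EP4, 16.7, 13.6 and 12.5 FPKM in AL4, 5.70, 4.84 and 5.39 FPKM in SM4, and 31.1, 28.1 and 16.1 FPKM in JS4. In SM, replicate 1 was higher at stage 3, with 10.7 FPKM, than any library of SM4. AL2 replicate 1, with 23.4 FPKM, was far above the other AL2 libraries with 4.67 and 3.48 FPKM, the opposite of its place for the genes with an early maximum. Cs5g33170, the next at stage 4 (1.70), showed the same, with 89.8 FPKM in AL2 replicate 1 beside 16.0 and 3.76 FPKM, and 104, 106 and 91.8 FPKM in AL4. Cs7g05140 was the single gene highest at stage 5 (1.07). It had 40.3, 43.2 and 35.8 FPKM in EP5, against 24.6, 21.5 and 17.9 FPKM in EP4 and 16.3, 15.7 and 14.1 FPKM in EP6, while in JS it had 5.68 to 15.7 FPKM at stage 1, 18.0 to 33.9 FPKM at stages 2 to 5 and 11.1 to 14.9 FPKM at stage 6.

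**Figure D2:**
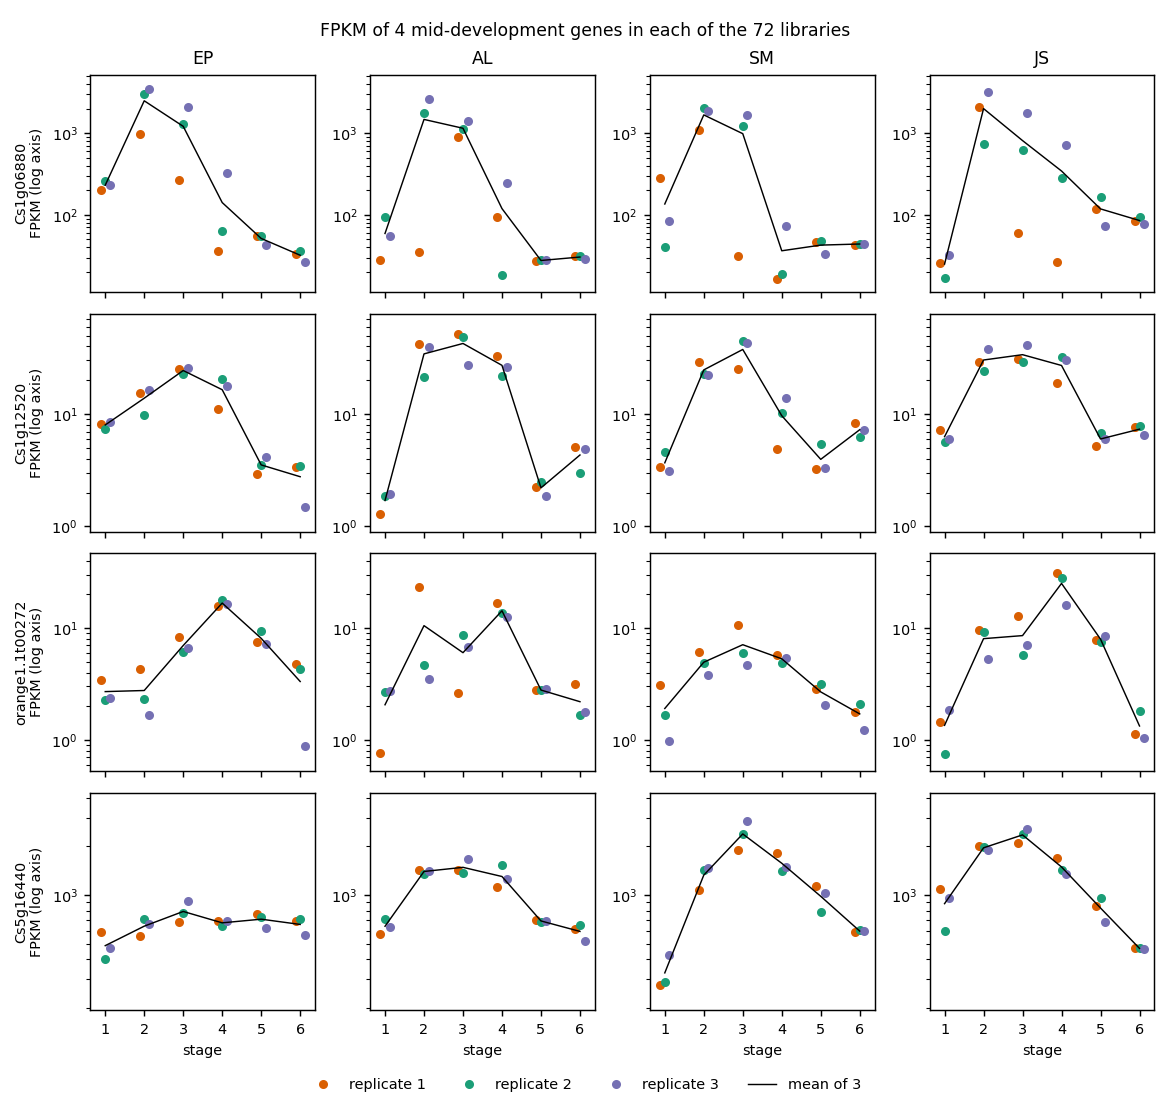
FPKM in each of the 72 libraries, on logarithmic axes, against the stage for Cs1g06880, Cs1g12520, orange1.1t00272 and Cs5g16440 (rows) in EP, AL, SM and JS (columns), with points coloured by replicate and lines through the group means. Cs1g06880 is highest at stage 2, where AL replicate 1, at 35.3 FPKM, lies far below the other AL points at 1789 and 2594 FPKM, and orange1.1t00272 is highest at stage 4 in EP and JS.

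The maximum in the average over tissues was not always present in each of them. Taken alone, 143 members had a peak height of at least 1 in AL, 133 in SM, 92 in JS and 84 in EP, and the median height was 1.45 in AL, 1.27 in SM, 1.02 in JS and 0.97 in EP. In 30 members all 4 tissues reached that height, in 66 members 3 did, in 56 members 2 did, in 22 members 1 did, and in 1 member none did. The highest of the middle stages was the same in all tissues for 98 members, took 2 values for 70 and 3 values for 7. In SM the 3 libraries of the peak stage lay above all 6 libraries of stages 1 and 6 for 152 members (22.5% of the genes of the level at their own highest middle stage), in EP for 133 (19.0%), in JS for 130 (14.1%) and in AL for 122 (16.7%). This separation held in all 4 tissues for 65 members (2.47% of the genes of the level), and for 18 members all 12 libraries of the peak stage were above all 24 of the end stages (0.331% of the genes of the level). Since this contrast chose the members, nothing is read from these counts beyond the description.

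The tissues were then compared in how far they took part. In whole tissue, fewer cells of a type and less RNA per cell cannot be told apart. Each tissue's mid-stage elevation, its mean at stages 2 to 5 minus its mean at stages 1 and 6, was compared with the mean elevation of the other 3 tissues with limma, over the 20077 genes with at least 1 FPKM in 3 libraries. Apart from the limits on the highest group mean, the choice of members used only averages over tissues and averages over stages. The difference between tissues within stages was not part of these averages. The highest group mean, however, is a value of a single tissue at a single stage. For members that reached the lower limit in few groups, the comparison is therefore not fully independent of the choice. The elevation also varied more over all genes tested in AL (SD 0.64) than in EP (SD 0.43). A choice by the average over tissues takes up more from a tissue that varies more. The calls in AL and EP are thus not independent of the choice on this account either, and its part was not tested. All 175 members passed the filter of at least 1 FPKM in 3 libraries. The median elevation of the members was 0.99 in AL, 0.76 in SM, 0.67 in JS and 0.52 in EP, against medians over all genes tested of -0.02 in AL, -0.03 in SM, -0.15 in JS and 0 in EP.

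In EP the members rose less than elsewhere. The elevation in EP was lower than in the other tissues for 50 members (28.6%, against 10.3% of all genes tested) and higher for 1 (against 18.9% of all genes tested), at a limma adjusted p under 0.05. The median difference over the members was -0.25, against 0.06 over all genes tested. A positive one was found in 42 of the 175 members, and the share over all genes was not counted. The lowest were Cs6g11720, at -1.13 (SE 0.21, limma adjusted p = 2.77e-05), and Cs1g03220, at -1.06 (SE 0.21, limma adjusted p = 7.05e-05). Cs1g03220 had 22.2, 36.4 and 61.9 FPKM in EP3, against 59.6, 47.4 and 55.9 FPKM in EP1, and did not rise there. In AL it had 136, 101 and 182 FPKM at stage 3, against 19.5, 40.7 and 40.2 FPKM at stage 1, without overlap. Cs6g11720 had 36.9, 27.1 and 31.7 FPKM in EP3, whereas in the other tissues at stage 3 its 9 libraries lay between 59.2 and 126 FPKM. Its highest EP group was EP2, with 36.5, 73.0 and 71.3 FPKM, which overlapped 49.6, 38.5 and 27.85 FPKM in EP1. In JS2 it had 182.8, 47.8 and 145.6 FPKM, so that EP and JS overlapped at stage 2. The member with the opposite pattern was Cs8g18570, whose elevation was 0.46 higher in EP (SE 0.12, limma adjusted p = 0.00359). It had 46.3, 53.3 and 60.0 FPKM in EP3, against 20.3, 28.9 and 27.3 FPKM in SM3 and 21.6, 30.0 and 29.8 FPKM in JS3, though AL3, with 49.2, 43.0 and 47.9 FPKM, was close to EP3.

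In AL the members rose more than elsewhere. The elevation in AL was higher than in the other tissues for 50 members (28.6%, against 11.3% of all genes tested) and lower for 5 (against 10.1% of all genes tested). The median difference was 0.31, against 0.06 over all genes tested. It was positive for 140 members, and the share over all genes was not counted. With the libraries rescaled by their median ratio to the geometric mean library, 26 members were still called higher (against 7.90% of all genes tested) and 6 lower (against 12.8%). Without the 3 libraries that stood apart from their groups, 59 members were called higher (against 12.9%) and 5 lower (against 10.7%). The largest difference was that of Cs1g17800, at 1.23 (SE 0.22, limma adjusted p = 2.58e-05). It had 12.2, 22.4 and 33.2 FPKM in AL2, against 1.97, 2.78 and 1.34 FPKM in AL1, while in JS2 it had 13.1, 7.23 and 23.4 FPKM, which overlapped 8.23, 8.17 and 11.02 FPKM in JS1. Cs8g15700 followed, at 1.12 (SE 0.27, limma adjusted p = 0.00194), with 81.5, 90.8 and 62.4 FPKM in AL4 and 10.2, 10.9 and 10.6 FPKM in AL6.

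The 2 members lowest in AL were high in young AL. Novel00524 had 162.8, 122.9 and 137.6 FPKM in AL1, and its AL libraries at stages 2 to 5 all lay below them, at 14.3 to 117 FPKM. Its elevation in AL minus that of the other tissues was -1.67 (SE 0.28, limma adjusted p = 7.07e-06). The same gene stood out in JS with the opposite sign, at 1.45 (SE 0.28, limma adjusted p = 8.58e-05), with 87.5, 89.0 and 120 FPKM in JS3, against 9.88, 20.1 and 13.4 FPKM in JS1. Novel00100 differed in AL by -1.27 (SE 0.20, limma adjusted p = 3.93e-06) and in SM by 1.21 (SE 0.20, limma adjusted p = 1.63e-05). It had 2.21, 8.004 and 11.1 FPKM in AL1 and 15.2, 9.46 and 14.8 FPKM in SM2, and was listed at 0 in 50 of the 72 libraries, among them all 18 of EP. With 907 fragments over all libraries it was among the most thinly covered members. SM2, with a mean of 13.2 FPKM, was its only group at or above the rule's lower limit of 10 FPKM. Its membership thus rested on the group behind its call in SM, and that call is not independent of the choice. SM2 also enters its call in AL, through the mean of the other tissues.

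The spread of the tissues moved with these results. Over the 20077 genes the SD of the elevation was 0.64 in AL, 0.58 in SM, 0.56 in JS and 0.43 in EP, in the same order as the medians of the members. The median SD among replicates at the middle stages was also the largest in AL, at 0.478 over the members and 0.369 over all genes tested, against 0.321 and 0.252 in EP. A choice by the average over tissues takes up genes with large swings in any tissue, and the part of these spreads in the calls of AL and EP was not tested. When the members were chosen again from 2 of the replicates and the elevation was read in the third, AL had the highest median of the tissues each time, at 0.70 in replicate 1, 0.89 in replicate 2 and 1.11 in replicate 3. EP had the lowest median in replicate 1, at 0.25, and in replicate 2, at 0.56, and in replicate 3 it was 0.79, level with JS at 0.78 and SM at 0.81. These values are a description and came without a test.

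**Figure D3:**
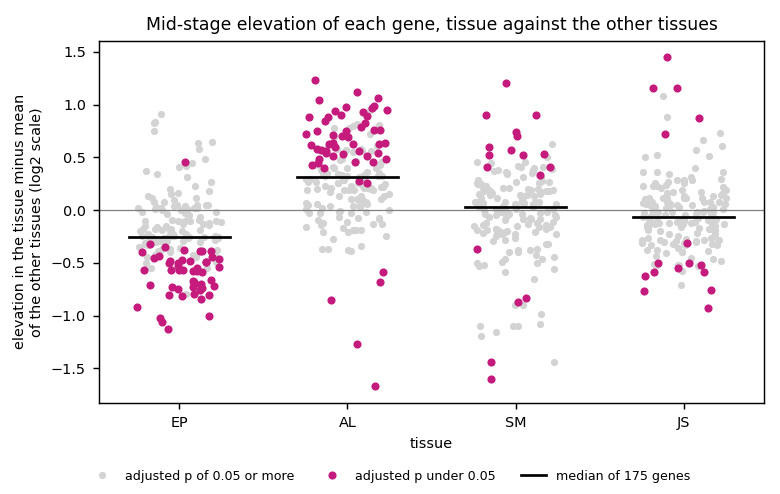
Mid-stage elevation in each tissue minus the mean of the other 3 tissues, in log2(FPKM + 1), with 1 point for each of the 175 members in EP, AL, SM and JS, pink where the limma adjusted p was under 0.05 and grey elsewhere, and a black bar at the median. The points of EP lie mostly below 0, with a median of -0.25, and those of AL mostly above, with a median of 0.31.

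SM and JS stood between these. In SM 13 members were called higher (7.4% of them, against 6.57% of all genes tested) and 5 lower (2.9%, against 7.33%), and in JS 5 were called higher (2.9%, against 4.70%) and 11 lower (6.3%, against 12.8%), shares near or below those of all genes. With the libraries scaled by their median ratio, 6 members were higher (against 4.91% of all genes tested) and 5 lower (against 8.65%) in SM. In JS the balance turned to 9 higher (against 7.53%) and 1 lower (against 6.89%) and the median difference of the members to 0.13, against -0.06 as deposited, while the median elevation of all genes in JS moved to -0.04 with the scaling, against -0.15 as deposited. The JS count of lower members was 20 without JS1 replicate 2 and 5 without JS1 replicate 1. With a term for each replicate number at each stage the JS count of lower members was 18 (against 15.7% of all genes tested). The SM count of higher members was 7 without SM1 replicate 2. For the fits that left out a single library, the shares over all genes were not counted.

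Cs5g16440, described above, had an elevation 0.90 higher in SM than in the other tissues (SE 0.12, limma adjusted p = 2.38e-07). The 2 members named as lower in SM had high values in SM1, Cs2g24740 with 43.8, 14.1 and 3.57 FPKM and Cs8g20110 with 10.5, 2.98 and 1.56 FPKM. Cs2g24740 differed by -1.60 (SE 0.52, limma adjusted p = 0.0286), and the call was lost without SM1 replicate 1 (-1.19, limma adjusted p = 0.152), without SM1 replicate 2 (-1.59, 0.0551) and without SM6 replicate 3 (-1.57, 0.0541), and with limma-voom on the recovered fragments (adjusted p = 0.19). Cs8g20110 differed by -1.44 (SE 0.38, limma adjusted p = 0.00553), and with limma-voom its adjusted p was 0.0703. EP2, with a mean of 16.1 FPKM, was its only group above the rule's lower limit. Since EP2 enters the mean of the other tissues, this call is not fully independent of the choice.

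In JS, orange1.1t00272 had an elevation 1.16 higher than in the other tissues (SE 0.27, limma adjusted p = 0.00161), with 31.1, 28.1 and 16.1 FPKM in JS4, against 1.45, 0.751 and 1.84 FPKM in JS1. For Cs9g04990 the difference was -0.77 (SE 0.17, limma adjusted p = 0.00105), with 29.4, 21.5 and 47.9 FPKM in JS2, against 21.3, 13.9 and 19.96 FPKM in JS1, a small rise without overlap. AL2 had 68.5, 101 and 97.9 FPKM, against 11.4, 18.8 and 19.2 FPKM in AL1. Cs5g07420 differed by -0.93 (SE 0.32, limma adjusted p = 0.0345), with 222, 115 and 214 FPKM in JS1 already above the 36.2 to 113 FPKM of the other tissues at stage 1. Its call was lost with the scaled libraries (adjusted p = 0.169) and without any 1 of JS1 replicate 1 (-0.85, limma adjusted p = 0.0856), JS1 replicate 3 (-0.86, 0.0768), JS2 replicate 2 (-0.87, 0.0539), JS4 replicate 1 (-0.84, 0.0633), JS6 replicate 1 (-0.82, 0.105) and JS6 replicate 3 (-0.95, 0.0525).

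Of the 175 members, 90 were called in at least 1 of the elevation comparisons (51.4%, against 47.2% of all genes tested). The timing of the fall within the middle stages was compared as well, as the mean of stages 4 and 5 minus the mean of stages 2 and 3, with a limma F test for differences among the 4 tissues. It called 56 members (32.0%, against 37.2% of all genes tested). The median over the members was -0.76 in JS, -0.90 in EP, -0.99 in SM and -1.03 in AL, against 0.02 in JS, -0.02 in EP, 0.07 in SM and 0.01 in AL over all genes tested. It was below 0 in 159 members in JS, 159 in EP, 163 in SM and 160 in AL, and the share over all genes was not counted. These medians and signs largely follow from the choice, since 102 members were highest at stage 2 and 59 at stage 3. They are a description only. For 64 members (36.6%, against 38.2% of all genes tested) neither the F test nor any elevation comparison passed the threshold, which does not show that their profiles were alike in the 4 tissues.

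The widest range of this change among the called members was that of Cs1g19190, followed by Cs2g06290. Cs1g19190 had a range of 3.42 over the tissues (limma F test adjusted p = 2.46e-14). Its highest group mean, 10.1 FPKM in EP4, stood just above the rule's lower limit of 10 FPKM. The choice thus used a value that enters this test, and the call is not independent of it. In EP Cs1g19190 had 10.6, 13.3 and 6.53 FPKM at stage 4, against 1.67, 1.95 and 2.92 FPKM at stage 3. In SM it had 2.99, 2.51 and 1.70 FPKM at stage 4, against 10.8, 4.82 and 4.37 FPKM at stage 3. AL moved like EP, with 9.01, 10.4 and 4.99 FPKM at stage 4, against 0.498, 0.616 and 0.512 FPKM at stage 3, and JS had 3.82, 3.25 and 2.93 FPKM at stage 4, against 1.63, 0.811 and 1.19 FPKM at stage 3. Cs2g06290 had a range of 3.09 (limma F test adjusted p = 0.000308). In EP2 it had 83.7, 182 and 189 FPKM, and it was low at stage 3 in all tissues, at 1.53 to 22.4 FPKM. It returned by stage 5 to 54.4, 46.1 and 22.5 FPKM in SM but only to 23.4, 10.4 and 18.8 FPKM in EP.

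Within the middle stages the members were low and high in the same replicates in several tissues. Averaged over tissues, replicate 1 was the lowest for 117 members at stage 2 (66.9%, against 27.3% of the genes of the level), 118 at stage 3 (67.4%, against 30.7%) and 120 at stage 4 (68.6%, against 54.9%). Replicate 3 was the highest for 137 members at stage 2 (78.3%, against 21.7%), 102 at stage 3 (58.3%, against 18.4%) and 135 at stage 4 (77.1%, against 47.8%). At stage 4 the genes of the level thus shared much of this order. Replicate 3 was above replicate 1 in every one of the 4 tissues for 81 members at stage 2 (46.3%, against 8.56% of the genes of the level), 48 at stage 3 (27.4%, against 8.08%) and 78 at stage 4 (44.6%, against 17.5%). The median difference of replicate 3 minus replicate 1 was 0.40, 0.33 and 0.33 at these stages, against 0.07 at stage 1, -0.03 at stage 5 and -0.11 at stage 6. The median difference was thus larger at stages 2 to 4 than at the other stages. Over the genes of the level it was -0.18 at stage 2, -0.12 at stage 3 and 0.10 at stage 4. An order of the replicates was also seen at the end stages. At stage 1 replicate 3 was the highest for 102 members (58.3%, against 37.6% of the genes of the level). At stage 6 replicate 3 was the lowest for 108 members, and for 4949 of the 13280 genes of the level. A replicate was a pool of fruits from 3 trees. Per the study's methods, 1 set of trees was sampled at every stage, and the fruits were dissected into the 4 tissues. Tissues of 1 replicate at a stage may therefore share fruits, and stages may share trees. The methods do not say outright that a replicate number of the labels stands for the same trees at every stage. The pattern was noticed in the data and was not tested.

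The choice of members was also repeated from 2 of the replicates and read in the one left out. With the rule applied to replicates 1 and 2 alone, 119 of the 148 genes chosen (80.4%) stood at least 1 above both end stages in replicate 3, at the stage chosen from the other replicates (4.08% of the genes meeting the rest of the rule), and all 148 were above 0. With replicates 1 and 3, 124 of 163 (76.1%) did so in replicate 2 (3.12%), and all 163 were above 0. With replicates 2 and 3, only 77 of 235 (32.8%) did so in replicate 1 (1.51%), although 229 were above 0. The median height in the replicate left out was 1.35 in replicate 3, 1.25 in replicate 2 and 0.80 in replicate 1. Over the genes meeting the rest of the rule, the median was -0.05 in replicate 1, 0.06 in replicate 2 and 0.05 in replicate 3. Their share above 0 was not counted. On the mean over tissues, nearly every chosen gene thus stood above both end stages at the chosen stage in the replicate left out. The replicates came from the same harvests. Without the share above 0 among the other genes, nothing further is read from these counts. In replicate 1 the height was smaller, and most of the 235 genes did not reach 1.

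Of what the choice did not use, the table gave lengths and IDs. The median transcript length of the members, recovered from the steps of the FPKM values, was 1618 bases, with quartiles of 1113 and 2040.5, against 1701 bases, with quartiles of 1182 and 2334.25, for the genes of the level. IDs that start with Cs made up 78.3% of the members, against 84.8% of the genes of the level, those that start with orange1.1t 16.6%, against 13.1%, and those of the kind of Novel00086 5.1%, against 2.1%. Consecutive numbers were held by 5 pairs of members. The longest run was Cs8g20100, Cs8g20110 and Cs8g20120, which was singled out after its values were seen. Cs8g20100 had 52.7, 277 and 464 FPKM in EP2 and 6.87, 341 and 405 FPKM in AL2, Cs8g20110 had 9.82, 13.6 and 24.8 FPKM in EP2 and 0.219, 7.82 and 8.23 FPKM in AL2, and Cs8g20120 had 10.5, 16.3 and 20.9 FPKM in EP2 and 5.77, 17.5 and 29.8 FPKM in AL2. In each of these groups replicate 1 was the lowest for all 3 genes, as it was for 72.6% of the members in EP2 and 68.0% in AL2. Such neighbours are uncertain where near-identical copies share fragments, which FPKM values cannot show.

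The depth behind the members was high in most cases. The total over the 72 libraries was 78224 fragments for the median member and 205 for the lowest, and 7 members were listed at 0 in at least 1 library.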

How the data were processed

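Poly(A) mRNA purified from the total RNA of 4 fruit tissues at 6 stages was sequenced in 72 libraries, and the authors deposited 1 FPKM value per gene and library. Per the study's methods, fragments were mapped to the C. sinensis genome with TopHat and counted with HTSeq, and Cufflinks, TopHat2 and HTSeq 0.6.1 stand in the submitters' processing notes. Stage days are those of the labels. The study's methods give another day for stage 4.

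Group means were taken as log2(mean FPKM + 1) to choose the members, which were limited to 300 genes (not reached). The members, lists and comparisons were chosen with earlier results of these data known. Tests were run with limma 3.58.1 in R 4.3.3 (lmFit, contrasts.fit, eBayes with a trend and robust) on log2(FPKM + 1) over all 24 groups, for genes with at least 1 FPKM in at least 3 libraries. P-values were adjusted by Benjamini-Hochberg over the 20077 genes tested, with a threshold of 0.05. Fold changes on this scale understate the change of low genes. The replicates of a group came from different groups of trees in 1 orchard, and p-values measure the spread between these pools. That spread was 1 estimate per gene, shared by all 24 groups. At the middle stages the median SD of the members was 0.478 in AL, 0.321 in EP, 0.314 in SM and 0.336 in JS. The shared estimate can therefore understate the error in AL. The main tests treated the 72 libraries as independent, although tissues and stages may share fruits or trees. Blocks by replicate number were run as alternatives only.

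FPKM values rise in whole multiples of 1 fragment, and fragments were recovered from these steps (tolerance 0.0001 fragment) for all 27759 genes above 0. They served for depth and for limma-voom, an alternative. Strand and shared fragments could not be checked.

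The rule for named genes took the 2 highest peaks per peak stage, the 2 highest group means, the 2 genes nearest the limit on either side, and per comparison at most the 2 largest called differences in each direction. Of the 30940 IDs, 0 matched the reference table, so no name, pathway list, marker list or sequence was used. Scripts were tested on simulated data. Alternatives were another pseudocount, library scaling, no filter, the replicate block, limma-voom, a stricter peak height, means of logs, and leaving out libraries. The choice from 2 replicates, the order of the replicates, the place of single libraries in their groups and a replicate block within each stage were added after seeing the data.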

Additional observations from a re-analysis of the deposited data

Results flagged for a closer look

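The following members had an elevation at stages 2 to 5 in 1 tissue that differed from the mean of the other 3 tissues by the limma interaction test (adjusted p under 0.05), in log2(FPKM + 1). In EP the difference was 0.46 for Cs8g18570, -1.13 for Cs6g11720 and -1.06 for Cs1g03220. In AL it was 1.23 for Cs1g17800, 1.12 for Cs8g15700, -1.67 for Novel00524 and -1.27 for Novel00100. In SM it was 1.21 for Novel00100, 0.90 for Cs5g16440, -1.60 for Cs2g24740 and -1.44 for Cs8g20110. In JS it was 1.45 for Novel00524, 1.16 for orange1.1t00272, -0.93 for Cs5g07420 and -0.77 for Cs9g04990. The change between early and late middle stages differed among the tissues in 56 members by the limma F test (32.0%, against 37.2% of all genes tested). The widest ranges among these were 3.42 for Cs1g19190 and 3.09 for Cs2g06290. All members named here were picked as the largest called differences among the members. For Novel00100 in SM and for Cs1g19190, the choice itself used the group that was high, SM2 and EP4. For Novel00100 in AL and for Cs8g20110 in SM it used a group of the other tissues, SM2 and EP2.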

How the results depend on the processing

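A peak height of at least 1.5 left 45 genes, 34 highest at stage 2, 9 at stage 3, 2 at stage 4 and 0 at stage 5. With libraries scaled by their median ratio, 232 genes met the rule, 7 highest at stage 4 and 2 at stage 5, and 135 were shared with the 175 members (77.1% of the members and 58.2% of the 232). That scaling gave 26 members called higher in AL (against 7.90% of all genes tested) and 6 higher in SM (against 4.91%). In JS it gave 9 higher (against 7.53%) and 1 lower (against 6.89%). Stage 5 was the highest stage of 2 genes with a pseudocount of 0.1 and of 2 without EP2, AL2 and AL3 replicate 1. Leaving out these libraries also gave 5 members higher in EP (against 19.8% of all genes tested). It gave 13 lower in SM (against 9.17%) and 24 lower in JS (against 16.6%). Limma-voom gave 3 lower in SM, and its share over all genes was not counted. Of the other results, 68 counts stayed within 1.5 times their value and 116 tests of named members stayed on their side of the threshold, while Cs2g24740, Cs8g20110 and Cs5g07420 lost their call under 1 setting each. No named member changed direction, while the median difference of the members under the median-ratio scaling was 0.13 in JS (-0.06 as deposited) and -0.04 in SM (0.03 as deposited).

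Over all stages, libraries of different groups with the same replicate number had a mean correlation of their deviations of 0.034 (lowest -0.554), and 42 of 72 libraries correlated best with 1 of their own number. Between tissues of the same stage it was 0.114 for the same number and -0.054 for different numbers, with 64 of 108 pairs over 0.1. With the replicate block, 3 members were called higher in EP (against 19.4% of all genes tested). With a block within each stage, added after seeing the data, 4 were higher in EP (against 20.5%) and 18 lower in JS (against 15.7%). No named member lost its call. No other count moved by over 1.5 times under either block.

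Leaving out replicate 1, 2 or 3 throughout gave 148 to 235 genes, 77 to 140 highest at stage 2, 50 to 82 at stage 3, 10 to 15 at stage 4 and 1 to 2 at stage 5. Leaving out each library in turn gave 1 to 4 members higher and 39 to 54 lower in EP, 34 to 63 higher and 2 to 6 lower in AL, 7 to 19 higher and 3 to 9 lower in SM, 4 to 6 higher and 5 to 20 lower in JS, and 47 to 70 called by the F test. The count of members lower in AL was 2 without AL6 replicate 1 and 3 without AL1 replicate 1 or 2, AL3 replicate 3, AL4 replicate 1 or 2, or AL6 replicate 2. The count lower in SM was 9 without AL2 replicate 1 and 3 without SM1 replicate 1 or SM6 replicate 3. The count lower in JS was 6 without JS1 replicate 3 or JS6 replicate 1, and 7 without EP1 replicate 2, JS2 replicate 2 or JS6 replicate 2. The count higher in EP was 4 without EP2 replicate 1, 3 without EP3 replicate 1, AL2 replicate 2 or 3, or SM1 replicate 3, and 2 without AL2 replicate 1 or replicate 3 of EP1, SM3, SM4, JS2, JS3 or JS4. The shares over all genes were not counted in the fits without a single library. A change in these counts therefore cannot be told apart from a change over all genes. The causes were not tested. Members with few fragments, such as Novel00100, are the least precise.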
